A study of Homo sapiens with 12 samples.

Results

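The 9 genes described here encode HELLS, UHRF1, the DNA methyltransferases DNMT1, DNMT3A and DNMT3B, and the core of Polycomb repressive complex 2 (PRC2): EZH2, EZH1, SUZ12 and EED. They are 9 of the 34643 gene symbols listed in the table of LNCaP counts, and all 9 were among the 15419 genes that passed the filter on low counts. The genes were chosen by name, but with measured values of the same libraries in view. HELLS belongs to a set of genes that the study selected on its larger response to DHT after TMEFF2 silencing, and the other 8 were added because of their functional ties to it when results of these libraries were known. Their levels and fold changes are therefore given as a description, without p-values. Calls counted for them below use an adjusted p only as a cut, and nothing is read from those counts.

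LNCaP is a human prostate cancer cell line that responds to androgen. The cells carried a lentiviral pLKO.1-puro vector in which the U6 promoter drives either a scrambled shRNA (shScramble) or an shRNA against TMEFF2 (shTMEFF2), a transmembrane protein whose gene is itself regulated by androgen. All cells had been selected with puromycin, were used about 2.5 weeks after transduction, and were kept for 24 h in medium with 10% charcoal-stripped serum, which is depleted of hormones. Dihydrotestosterone (DHT) at 10 nM (DHT+) or 0.0001% ethanol (DHT-) was then given for 24 h, which makes 4 groups of 3 libraries. The 3 repeats of a group were separate treatments drawn from 2 transductions, and the labels do not say which repeat came from which, so the error measures the spread between treatments of transduced pools and not between independent cell lines. Libraries held 19450866 to 22612046 estimated counts, and levels are CPM, each gene's share of the library's counts, after TMM normalization, a scaling that equalizes the bulk of the genes between libraries.

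DNA methylation is copied at replication: UHRF1 recognizes DNA methylated on a single strand behind the fork and brings in DNMT1, which restores the missing methyl group, while DNMT3A and DNMT3B can methylate unmethylated sites. HELLS is an ATP-driven remodeler of the SNF2 family that opens nucleosomal DNA for this machinery. PRC2 trimethylates lysine 27 of histone H3, a mark of repressed genes. EZH2 or EZH1 supplies its catalytic activity, and EZH2 is known as a gene of proliferating cells that is often high in advanced prostate cancer.

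TMEFF2, the target of the shRNA, was measured first. Its level was 77.8, 73.8 and 103.2 CPM in shScramble DHT- and 68.6, 39.4 and 81.7 CPM in shTMEFF2 DHT-. With DHT it was 173.3, 117.0 and 169.5 CPM in shScramble and 142.1, 90.1 and 114.5 CPM in shTMEFF2. The shTMEFF2 means were lower at both DHT levels, but the libraries overlapped and the log2 difference passed the test neither without DHT (-0.43 ± 0.25 SE, edgeR adjusted p = 0.503) nor with it (-0.41 ± 0.25 SE, edgeR adjusted p = 0.304). Between libraries with the same replicate number and DHT level, TMEFF2 was lower in shTMEFF2 in 6 of 6 pairs, though the labels do not tie the numbers to a transduction. Per the labels, the knockdown had been checked in the cells after puromycin selection. Of 3 androgen-responsive genes read as a check (KLK3, FKBP5 and TMPRSS2), 3 rose with DHT in shScramble and 2 in shTMEFF2, where TMPRSS2 did not pass. Between the lines 1 of the 3 was called lower in shTMEFF2 without DHT and 3 with it, against 0.272% and 3.74% of all genes. KLK3, which encodes prostate-specific antigen, was 1925 ± 26.5 CPM (SD, n = 3) in shScramble DHT- and 7495 ± 261 in shScramble DHT+, against 356 ± 134 and 1949 ± 511 CPM in shTMEFF2. Its log2 difference between lines was -2.43 ± 0.23 without DHT (edgeR adjusted p = 0.000283) and -1.94 ± 0.22 with it (adjusted p = 8.28e-05). With DHT, FKBP5 was also lower in shTMEFF2 (-2.56 ± 0.15, edgeR adjusted p = 9.01e-07), as was TMPRSS2 (-2.22 ± 0.48, adjusted p = 0.00755). The lines thus differed in these genes beside the 9 described here, and the part of this in their levels was not tested.

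Markers of luminal prostate cells were present in every library, with FOLH1 at 1381 to 2624 CPM and HOXB13 at 346 to 522 CPM. They differed between groups. KRT8 and KRT18, also luminal markers, were higher with DHT in shScramble (log2 1.35 ± 0.09 and 1.13 ± 0.07). In shTMEFF2 their values were -0.15 ± 0.09 and 0.06 ± 0.07. FOLH1 was lower with DHT in shScramble and shTMEFF2 (-0.88 ± 0.05 and -0.38 ± 0.05), as was HOXB13 (-0.36 ± 0.07 and -0.34 ± 0.07). The basal keratin KRT5 and the neuroendocrine factor INSM1 were at 0 in all 12 libraries, and CDH5 of endothelium and CD3E of T cells did not exceed about 1 count. Another basal keratin, KRT14, reached 1.44 CPM at most and was called higher with DHT in shScramble (5.02 ± 0.98, edgeR adjusted p = 0.00217). Some single genes of other cell types were detected. The most abundant were COL1A1 at 11.9 to 30.4 CPM and VWF at 11.8 to 28.3 CPM. The 4 stromal markers summed to 20.9 to 21.7 CPM in shScramble DHT-, 12.6 to 13.6 in shScramble DHT+, 22.9 to 34.0 in shTMEFF2 DHT- and 16.9 to 20.8 in shTMEFF2 DHT+, and COL1A1 fell with DHT in both lines. The 3 endothelial markers summed to 13.2 to 14.6 CPM in shScramble DHT+ and 19.8 to 29.5 CPM in shTMEFF2 DHT+, nearly all of it VWF, and the 3 leukocyte markers to 7.83 to 12.6 CPM over all libraries. The part of all these markers in the results below was not tested. In such bulk libraries, more cells of a kind and more RNA per cell cannot be told apart.

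HELLS, UHRF1 and the other genes were first set beside the start of their own transcription units, because sites of the E2F family, factors that drive genes of DNA replication, are a feature shared by many genes of dividing cells. RefSeq promoter windows of 300 bases, from 250 before to 50 after the start, were found for all 9 genes (17 windows, build GRCh38.p14) and searched on both strands for TTGGCGC and its variants TTGCCGC as well as TTCGCGC together with TTCCCGC. At least 1 of these was found in 6 of the 9 genes (HELLS, UHRF1, DNMT1, EZH2, EZH1 and SUZ12), and in 15.3% of the 27305 genes in the promoter table. HELLS and UHRF1 had 2 or more in a window, as did 2.16% of genes. The sites are printed with 10 bases on either side, in the direction of the gene, with the match or its reverse complement in capitals. A further match in another UHRF1 window is not shown.
HELLS, chr10:94545702-94545728, plus strand: accgcaagctGCGCCAAatctcgcgca
HELLS, chr10:94545771-94545797, plus strand: tgacaggattTTCCCGCgaaggagaag
UHRF1, chr19:4909387-4909413, plus strand: tctttctcgcTTCCCGCcactgcgtcg
UHRF1, chr19:4909477-4909503, plus strand: ccgagttttcGCGGGAAaaaaatcaga
DNMT1, chr19:10194939-10194965, minus strand: atcggtttccGCGCGAAaagccggggc
EZH2, chr7:148884273-148884299, minus strand: gctgccgcgtTTGGCGCtcggtccggt
EZH1, chr17:42745139-42745165, minus strand: cggggttttgGCGGCAAatgacagtag
SUZ12, chr17:31936809-31936835, plus strand: acccctaattTTCCCGCgaattcagtt

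The HELLS matches lay 76 to 70 and 7 to 1 bases before the start, and that of EZH2 lay 3 to 9 bases after it. DNMT3A, DNMT3B and EED had none of these letters in their windows. Matches to at least 1 of the 4 sequences were thus found in genes with higher levels after DHT and also in EZH1 and SUZ12, whose levels with and without DHT overlapped in both lines, so the matches are only a description of the sequence. A CCAAT box (CCAAT on either strand), a common promoter element, was found in 6 of the 9 genes and in 39.7% of all genes, and EZH2 and UHRF1 had 2 or more, as did 12.9% of genes. EZH2 is shown for this element from 100 to 31 bases before its start, with the 3 boxes of that stretch in capitals. A further box, 13 to 9 bases before the start, is not shown.
EZH2, chr7:148884322-148884391, minus strand: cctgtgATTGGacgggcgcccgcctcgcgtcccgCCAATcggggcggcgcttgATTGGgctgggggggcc

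Also searched were the CHR element TTTGAA, found in DNMT3A and SUZ12 (18.2% of all genes), and the GC box GGGCGG, found in 6 genes (48.3%). The hexamer AGAACA, one arm of the androgen response element, was found in 0 of the 9 genes and in 17.5% of all genes. The full element, that hexamer followed after NNN by its reverse complement TGTTCT, was in 0 of the 9 and in 1 of the 27305 genes. No match says only that these letters are not in these windows. DNMT3B stood apart in base composition: its window had a ratio of observed to expected CpG of 0.118, against a median of 0.5791 over all windows, while the other members' windows lay between 0.5029 and 1.1.

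HELLS (chr10:94545329-94613905 in GRCh38, plus strand, 22 exons in the canonical transcript) had its highest levels in shTMEFF2 cells given DHT. Its level was 21.4, 26.5 and 23.4 CPM in shScramble DHT-, and 22.2, 23.9 and 25.6 CPM in shTMEFF2 DHT-. With DHT it was 28.2, 33.5 and 30.8 CPM in shScramble and 50.8, 47.6 and 58.0 CPM in shTMEFF2. Every DHT+ library lay above every DHT- library, and the lowest shTMEFF2 DHT+ library lay above the highest shScramble DHT+ library, while the DHT- groups overlapped. The fitted log2 fold change with DHT was 0.38 ± 0.11 (SE) in shScramble and 1.12 ± 0.11 in shTMEFF2, or 1.30-fold and 2.18-fold. The difference between these responses was 0.75 ± 0.15. Between lines, HELLS was 1.69-fold higher in shTMEFF2 with DHT and 1.01-fold without.

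UHRF1 (chr19:4903080-4962154, plus strand) was higher with DHT in both lines, by amounts that differed less than those of HELLS. Its level was 27.2, 37.8 and 37.9 CPM in shScramble DHT- and 42.2, 54.4 and 55.7 CPM in shScramble DHT+. In shTMEFF2 it was 37.6, 36.7 and 45.6 CPM without DHT and 62.9, 72.9 and 68.6 CPM with DHT. The shTMEFF2 DHT+ libraries were the highest, and shScramble DHT+ overlapped shTMEFF2 DHT-, although DHT separated the groups within each line. The log2 fold change with DHT was 0.57 ± 0.14 in shScramble and 0.77 ± 0.14 in shTMEFF2, and their difference, 0.20 ± 0.20, was as large as its standard error. Leaving out 1 library, that difference ranged from 0.09 (without the first shScramble DHT+ library) to 0.35 (without the first shScramble DHT- library).

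DNMT1 (chr19:10133342-10231286, minus strand), the maintenance methyltransferase, differed with DHT mainly in the shTMEFF2 libraries. It stood at 128.1, 130.2 and 136.2 CPM in shScramble DHT- and at 141.7, 135.6 and 143.6 CPM in shScramble DHT+. In shTMEFF2 it was 108.4, 109.7 and 135.4 CPM without DHT and 187.0, 155.8 and 176.6 CPM with DHT. The shScramble groups overlapped by a narrow margin, whereas all shTMEFF2 DHT+ libraries were above all 9 others. The third shTMEFF2 DHT- library was at the shScramble level, and the other two of that group were the lowest of all 12. The log2 fold change with DHT was 0.09 ± 0.09 in shScramble and 0.55 ± 0.09 in shTMEFF2, a difference of 0.46 ± 0.13. DNMT1 overlaps S1PR2 on the same strand in the annotation, and how reads there were divided is not known.

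DNMT3A and DNMT3B are the methyltransferases that set new methylation. DNMT3A (chr2:25227855-25342590, minus strand) was 31.4, 32.1 and 39.9 CPM in shScramble DHT- and 25.2, 29.2 and 27.7 CPM in shScramble DHT+. In shTMEFF2 it was 38.1, 33.7 and 34.4 CPM without DHT and 37.3, 27.7 and 29.0 CPM with it. DNMT3A was thus lower with DHT in every shScramble library, whereas the first shTMEFF2 DHT+ library lay within the DHT- range. Its log2 fold change was -0.33 ± 0.12 in shScramble and -0.18 ± 0.12 in shTMEFF2, and no neighbouring groups in the order of its levels were free of overlap. Without the third shScramble DHT- library the first was -0.21, and the second was -0.32 without the first shTMEFF2 DHT+ library and -0.08 without the second.

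DNMT3B (chr20:32762385-32809359, plus strand) was the lowest of the 9 genes. It measured 8.5, 9.9 and 9.8 CPM in shScramble DHT-, 9.0, 9.1 and 8.5 CPM in shScramble DHT+, and 9.6, 8.8 and 10.8 CPM in shTMEFF2 DHT-. These 3 groups overlapped, and the shTMEFF2 DHT+ libraries, at 11.02, 12.46 and 11.33 CPM, lay just above all of them. The counts behind DNMT3B were 170 to 273 per library. Its log2 fold change with DHT was -0.08 ± 0.12 in shScramble and 0.25 ± 0.11 in shTMEFF2. The first was -0.15 without the first shScramble DHT- library and -0.05 without the second.

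EZH2 (chr7:148807257-148884321, minus strand), the catalytic subunit of PRC2 in dividing cells, had a pattern close to that of HELLS and UHRF1. It was 34.4, 39.9 and 40.6 CPM in shScramble DHT- and 40.6, 56.7 and 44.3 CPM in shScramble DHT+. In shTMEFF2 it was 36.6, 39.1 and 46.0 CPM without DHT and 58.6, 59.4 and 66.4 CPM with DHT. The shScramble groups met at 40.6 CPM, and the second DHT+ library was the highest of them, while in shTMEFF2 the groups were apart. The log2 fold change with DHT was 0.30 ± 0.12 in shScramble and 0.60 ± 0.12 in shTMEFF2, or 1.23-fold and 1.52-fold. Without the second shScramble DHT+ library the first of these was 0.15.

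EZH1 (chr17:42700275-42745049, minus strand), the alternative catalytic subunit, had lower means with DHT in both lines, within the spread of its libraries. It was 53.9, 40.9 and 44.4 CPM in shScramble DHT-, 37.3, 41.7 and 40.4 CPM in shScramble DHT+, 52.6, 37.3 and 54.3 CPM in shTMEFF2 DHT-, and 44.3, 37.3 and 38.3 CPM in shTMEFF2 DHT+. All 4 groups overlapped, with log2 fold changes with DHT of -0.22 ± 0.14 and -0.27 ± 0.14. The first was -0.10 without the first shScramble DHT- library, and the second ranged from -0.42 to -0.16 without the second or the third shTMEFF2 DHT- library. Because a ratio of counts within a library needs no scaling between libraries, EZH2 was also divided by EZH1. The ratio was 0.638, 0.975 and 0.915 in shScramble DHT-, 1.09, 1.36 and 1.10 in shScramble DHT+, 0.696, 1.05 and 0.847 in shTMEFF2 DHT-, and 1.32, 1.59 and 1.73 in shTMEFF2 DHT+. Every DHT+ library had more EZH2 than EZH1 counts, and 5 of the 6 DHT- libraries had fewer. Counts also depend on transcript length (2654 bases for EZH2 and 4633 for EZH1, canonical), so a ratio of 1 does not mark equal levels. Per kilobase of these transcripts, mean EZH2 was above mean EZH1 in every group. In shScramble DHT- the means were 14.4 ± 1.28 and 10.0 ± 1.45 CPM, and in shTMEFF2 DHT- 15.3 ± 1.83 and 10.4 ± 2.01 CPM. The means were 0.843 ± 0.180 (SD, n = 3), 1.18 ± 0.156, 0.863 ± 0.176 and 1.55 ± 0.209 in that order of groups, so that the ratio was similar in both lines without DHT and higher in both with it. Both DHT+ groups overlapped, and so did both DHT- groups.

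**Figure D1:**
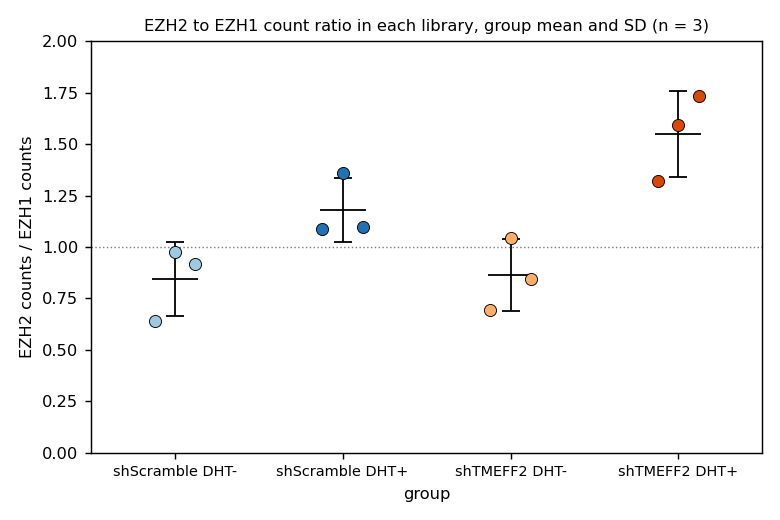
Ratio of EZH2 to EZH1 counts (y axis, no unit) in each of the 12 libraries (points), by group (x axis), with the group mean and SD (bars, n = 3) and a dotted line at a ratio of 1. All 6 DHT+ libraries lie above all 6 DHT- libraries, from 1.09 to 1.73. The line marks equal counts and not equal levels, because the 2 transcripts differ in length.

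The scaffold SUZ12 (chr17:31937007-32001038, plus strand), which holds the complex together, did not separate the groups. It was 129.6, 161.0 and 140.9 CPM in shScramble DHT-, 113.5, 139.3 and 127.6 CPM in shScramble DHT+, 128.5, 127.0 and 143.6 CPM in shTMEFF2 DHT-, and 141.8, 134.7 and 161.6 CPM in shTMEFF2 DHT+. Its log2 fold change with DHT was -0.18 ± 0.10 in shScramble and 0.13 ± 0.10 in shTMEFF2, with -0.09 in shScramble without the second DHT- library and 0.07 in shTMEFF2 without the third DHT+ library. EED (chr11:86201212-86278813, plus strand), which binds the finished mark, was 26.7, 24.7 and 25.7 CPM in shScramble DHT-, 24.5, 29.9 and 23.8 CPM in shScramble DHT+, and 25.4, 24.2 and 27.8 CPM in shTMEFF2 DHT-. Those 3 groups overlapped, and the shTMEFF2 DHT+ libraries, at 31.3, 31.3 and 33.8 CPM, were above all others. The log2 fold change of EED with DHT was 0.02 ± 0.10 in shScramble (-0.09 without the second DHT+ library) and 0.31 ± 0.10 in shTMEFF2.

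**Figure D2:**
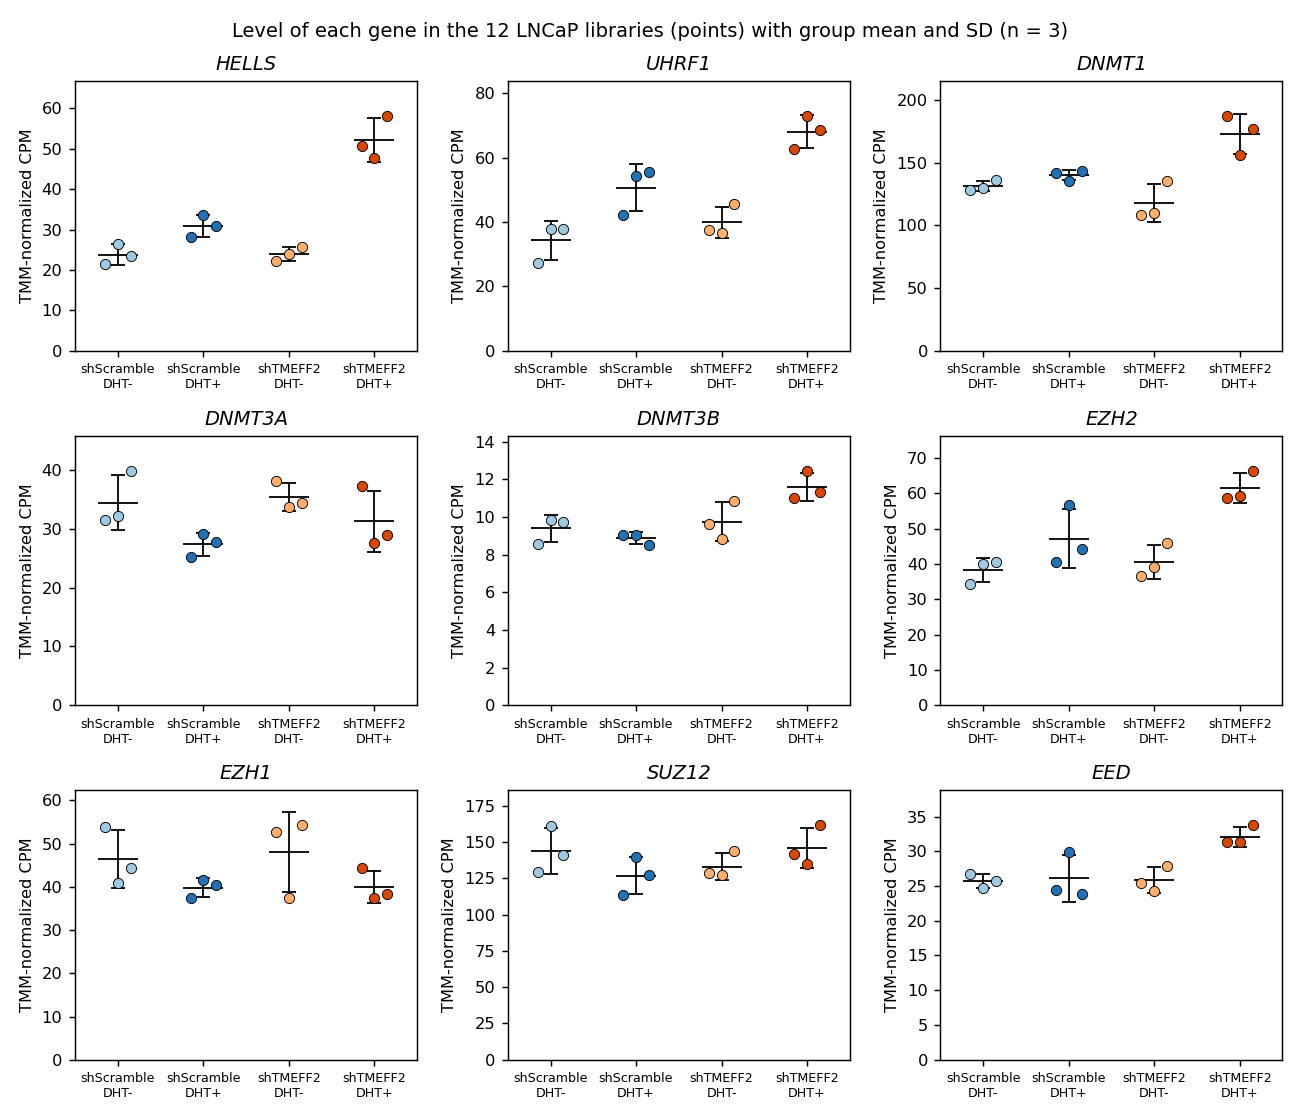
Level in TMM-normalized CPM (y axes, from 0) of each of the 9 genes in the 4 groups (x axes), with each library as a point and the group mean and SD as bars (n = 3). The shTMEFF2 DHT+ libraries are apart from and above the other 9 libraries for HELLS, UHRF1, DNMT1, DNMT3B, EZH2 and EED, and overlap with other groups for DNMT3A, EZH1 and SUZ12.

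Set per kilobase of the canonical transcript, which allows levels of different genes to be compared, SUZ12 and DNMT1 were the most abundant of the 9 and DNMT3B the least. In shTMEFF2 DHT+ the level per kilobase was 32.8 ± 3.01 CPM (SD, n = 3) for DNMT1, 32.5 ± 3.10 for SUZ12, 23.2 ± 1.62 for EZH2, 17.5 ± 1.29 for UHRF1, 16.7 ± 1.71 for HELLS and 15.4 ± 0.689 for EED. EZH1 followed at 8.63 ± 0.814, DNMT3A at 3.32 ± 0.552 and DNMT3B at 2.68 ± 0.175. DNMT1 and SUZ12 were within their spread of each other, as were UHRF1, HELLS and EED taken as neighbours. In shScramble DHT-, the mean of HELLS, 7.60 ± 0.827, was under that of EZH1, 10.0 ± 1.45. UHRF1, at 8.80 ± 1.57, and EZH1 were within their spread of each other there. Lengths of the transcripts used by the authors were not used here, so these levels are approximate.

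A gene was called at a fold of at least 1.5 and an edgeR adjusted p of at most 0.05. With DHT, 0 of the 9 genes were called in shScramble, where 11.9% of all genes were (5.45% higher and 6.46% lower). In shTMEFF2 3 were called (HELLS, UHRF1 and EZH2, all higher), where 4.88% of all genes were called (3.28% higher and 1.6% lower). EZH2 kept its call in 9 of 12 fits that left out 1 library, and UHRF1 gained one in shScramble in 3 of 12. Between lines, 0 were called without DHT (0.571% of all genes, 0.298% higher and 0.272% lower) and 1 with DHT, HELLS (6.77% of all genes, 3.03% higher and 3.74% lower). The difference between the DHT responses, called on the adjusted p alone, was also called for HELLS (4.94% of all genes, 1.65% higher and 3.29% lower). It was called for DNMT1 as well in 5 of 6 other settings, among them DESeq2, but in 2 of 12 fits leaving out 1 library. The split of all genes depended on the scaling: with library size only in place of TMM, 625 genes were called higher and 470 lower between lines with DHT (467 and 577 with TMM), and the difference was positive for 370 and negative for 398 (254 and 507 with TMM). As the genes were chosen with such values in view, nothing is read from these counts.

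Groups of libraries that did not overlap were counted in the same way. With DHT, 2 of the 9 genes were higher without overlap in shScramble (21.3% of all genes) and 1, DNMT3A, was lower (20.5%), where 41.8% of all genes did not overlap. In shTMEFF2, 6 were higher (15.6%) and 0 lower (15.6%), of 31.2% in either direction. With DHT given to both lines, 6 genes were higher without overlap in shTMEFF2 (15.5% of all genes) and 0 lower (16.9%), of 32.4% in either direction. Without DHT all 9 overlapped, whereas 18.6% of all genes did not (9.39% higher and 9.22% lower). The median log2 fold change of the 9 genes with DHT was 0.02 in shScramble and 0.31 in shTMEFF2, beside -0.01 and -0.02 over all genes.

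**Figure D3:**
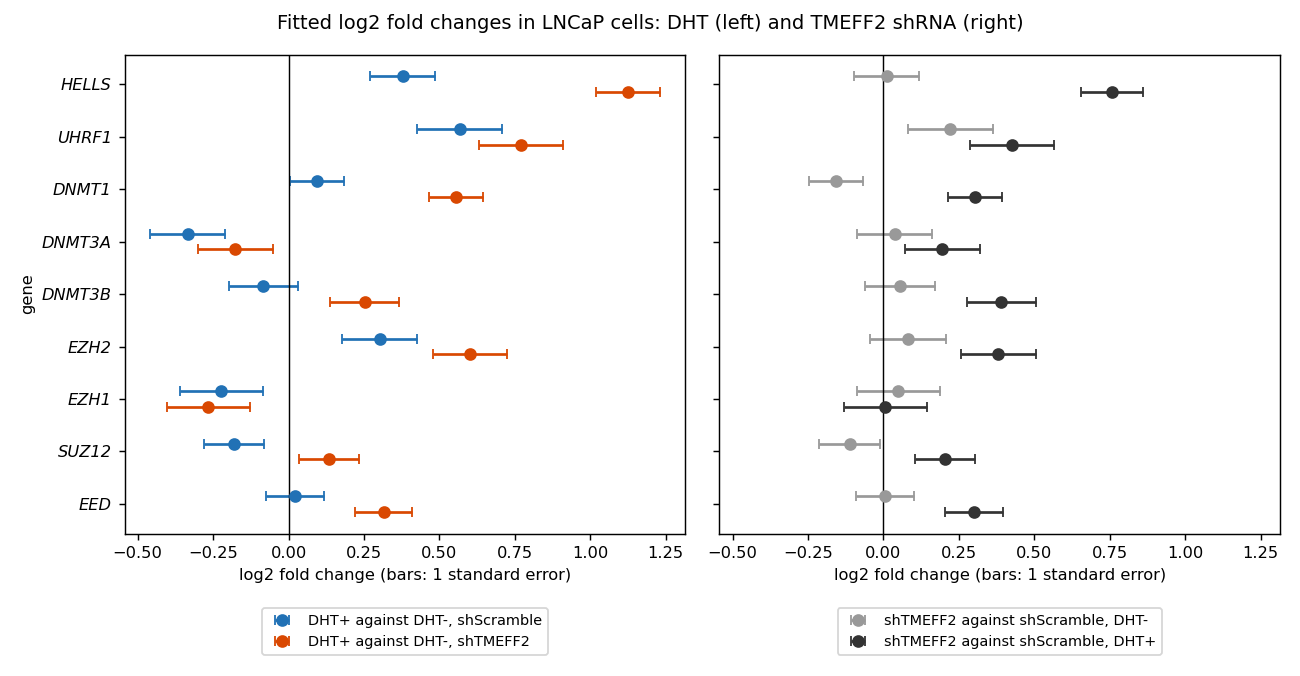
Fitted log2 fold changes (x axes) with 1 standard error (bars) of the 9 genes (y axis) for DHT+ against DHT- in each line (left) and for shTMEFF2 against shScramble at each DHT level (right). HELLS has the highest values, 1.12 for DHT in shTMEFF2 and 0.76 for shTMEFF2 against shScramble with DHT, and the values without DHT lie between -0.16 and 0.22.

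Among themselves, the 9 genes fell into pairs that moved together over the 12 libraries and pairs that did not. Pearson's r of log2 CPM was 0.94 for HELLS and EZH2, 0.93 for UHRF1 and EZH2, 0.91 for HELLS and UHRF1 and 0.88 for HELLS and DNMT1. It was 0.40 for HELLS and SUZ12, -0.32 for HELLS and DNMT3A and -0.42 for EZH2 and EZH1. These values describe 12 libraries in 4 groups that share treatments, and much of each value is the difference between groups.

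The genes whose levels were most like each member over the 12 libraries were taken from 11156 genes with a mean of at least 5 CPM. They were NUP155 (r = 0.985), CSE1L and FANCI for HELLS, ZW10 (0.985), GINS2 and ORC1 for UHRF1, and EXOSC2 (0.975), MIS18A and NEIL3 for EZH2. For DNMT1 they were CENPS (0.937), POLA1 and DCLRE1A, for DNMT3B PIF1 (0.935), RCC1 and UACA, and for EED ARHGAP11B (0.945), PHTF2 and LIN54. DNMT3A was most like GOLGA6L4 (0.919), ZNF84 and GAB2, EZH1 most like LRRC49 (0.900), MPDZ and RP11-32B5.1, and SUZ12 most like VDAC3 (0.891) and SENP6.

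Genes around this machinery were described from lists of names. Here and below, counts of genes that rose or fell are counts of calls, at 1.5-fold and an adjusted p of at most 0.05. Genes outside these counts may still have changed by less. The first holds the proteins that bring UHRF1, DNMT1 or HELLS to replicating DNA and the histone chaperones of replication, 12 of whose 13 genes were tested. With DHT in shTMEFF2, 6 of the 12 rose and 0 fell, against 3.28% of all genes called higher, and the median log2 fold change was 0.59. The highest were ASF1B, a histone chaperone (1.01 ± 0.17, edgeR adjusted p = 0.00301), and CDCA7, a partner of HELLS (0.89 ± 0.17, adjusted p = 0.00486), and the lowest of the 6 were CHAF1A (0.66 ± 0.10) and PCLAF (0.66 ± 0.14), which both bind PCNA. In shScramble the median was 0.44. At the adjusted p alone, without the fold limit, 8 of the 12 were higher in shScramble and 9 in shTMEFF2. The difference between the responses was called for 1 of the 12. In shScramble 3 of the 12 met the full call (5.45% of all genes were called higher), and 1 to 3 when 1 library was left out. The 3 were CDCA7 (0.66 ± 0.17), ASF1B (0.59 ± 0.17) and ZBTB24 (0.66 ± 0.09), a zinc finger protein known to activate CDCA7. Without DHT 0 of 12 were called between the lines by edgeR, with 1 at an unadjusted p under 0.05.

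Between the lines with DHT, CDCA7L, a relative of CDCA7, was 1.81-fold higher in shTMEFF2 (log2 0.86 ± 0.13, edgeR adjusted p = 0.000753). CHAF1B, a subunit of the chaperone CAF-1 that binds PCNA, was 1.51-fold higher (log2 0.59 ± 0.10, edgeR adjusted p = 0.00148). The mean of CDCA7L was 35.1 ± 2.86 CPM (SD, n = 3) in shScramble DHT-, 27.1 ± 3.62 in shScramble DHT+, 35.4 ± 6.22 in shTMEFF2 DHT- and 49.0 ± 4.55 in shTMEFF2 DHT+. Its DHT responses had opposite signs in the lines, and their difference passed the test (0.85 ± 0.19, edgeR adjusted p = 0.0206).

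The list of PRC2 partners, with the histone-binding RBBP4 and RBBP7 and accessory subunits such as JARID2 and MTF2, had 9 of 10 genes tested, and the tenth, EZHIP, was at 0 in every library. In all 5 comparisons 0 were called by edgeR. At an unadjusted p under 0.05 there were 3 for DHT in shScramble, 2 in shTMEFF2, 2 between lines without DHT, 4 with DHT and 1 for the difference. JARID2, which helps bring PRC2 to its targets, had a log2 fold change with DHT of -0.45 ± 0.08 in shScramble and -0.38 ± 0.08 in shTMEFF2, short of 1.5-fold in both.

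**Figure D4:**
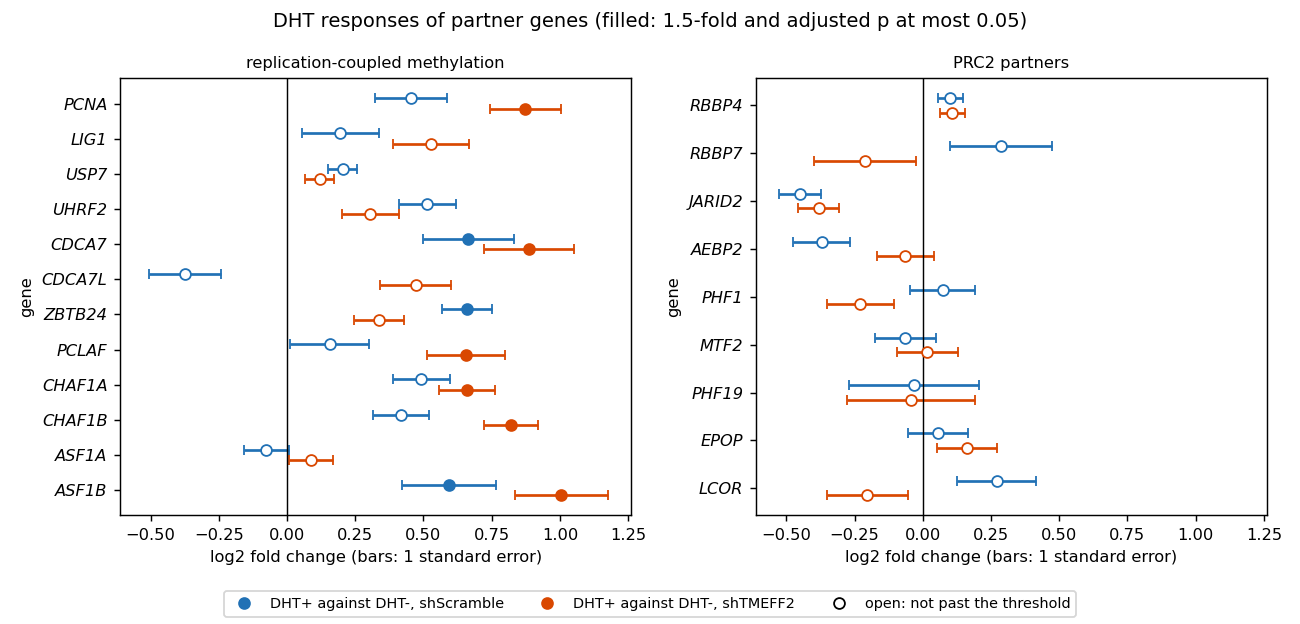
Log2 fold change with DHT (x axes) with 1 standard error (bars) for the tested genes (y axes) of the replication-coupled methylation list (left) and the PRC2 partner list (right), in shScramble and shTMEFF2. Filled points passed 1.5-fold and an adjusted p of 0.05: 3 and 6 of 12 genes on the left and 0 of 9 on the right.

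Of 23 genes that encode enzymes removing the H3K27 mark, subunits of PRC1, the complex that reads it, or BAP1 and ASXL1, which remove the H2A ubiquitin set by PRC1, 3 fell with DHT in shScramble (6.46% of all genes were called lower) and 1 rose in shTMEFF2 (3.28% of all genes were called higher). The 3 were PCGF2 (-0.67 ± 0.07, edgeR adjusted p = 2.54e-05), PHC1 (-0.81 ± 0.13, adjusted p = 0.000682) and the demethylase KDM6B (-1.66 ± 0.48, adjusted p = 0.0222), whose libraries overlapped. SCML2 rose in shTMEFF2 (0.61 ± 0.15, edgeR adjusted p = 0.0192). KDM6A, the other demethylase, was 461 ± 13.6 CPM in shScramble DHT- and 310.7 ± 15.1 in shScramble DHT+, against 441 ± 23.1 and 393 ± 16.8 in shTMEFF2. The difference between its DHT responses was 0.40 ± 0.08 (edgeR adjusted p = 0.0153).

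Among 6 genes that remove DNA methylation, TET2, which oxidizes 5-methylcytosine, fell with DHT in shScramble (-0.60 ± 0.09, edgeR adjusted p = 0.000314) and no other call was made in any comparison. Of 9 readers of methylated DNA and 7 genes of the methyl donor cycle, 0 were called by edgeR in the 5 comparisons, and at an unadjusted p under 0.05 there were at most 4 in either list. Of 13 genes of H3K9 methylation, the difference between DHT responses was called for KDM4B, a demethylase (-0.49 ± 0.12, edgeR adjusted p = 0.0374), a call that held in 7 of 18 other fits. HELLS was set beside 28 other SNF2 remodelers. With DHT in shTMEFF2, RAD54L (1.04 ± 0.14, edgeR adjusted p = 0.000891) and RAD54B (0.82 ± 0.12, adjusted p = 0.00117), both of homologous recombination, rose. In shScramble RAD54B (0.76 ± 0.12) and CHD7 (0.71 ± 0.15) rose and CHD6 fell (-0.74 ± 0.14). Over the 11 lists of chromatin genes, 10 of 123 tested genes were called higher and 0 lower with DHT in shTMEFF2, beside 3.28% and 1.6% of all genes. In shScramble 6 were called higher and 5 lower, against 5.45% and 6.46% of all genes. At the adjusted p alone, without the fold limit, 21 were higher and 11 lower in shTMEFF2. In shScramble 20 were higher and 22 lower at that cut.

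Genes known as repressed by methylation or by EZH2 were also read. Of 11 genes with promoter methylation in prostate cancer, 3 were tested. GSTP1, the best known of them, was at 0 in every library of 3 groups and at no more than 1.57 counts in shTMEFF2 DHT-, so no fold is given. RARB, the retinoic acid receptor beta, rose with DHT in shScramble (1.21 ± 0.24, edgeR adjusted p = 0.00240) and in shTMEFF2 (0.73 ± 0.22, adjusted p = 0.0487, a call made in 6 of 18 other fits), from 1.56 ± 0.443 to 3.56 ± 0.372 CPM and from 2.80 ± 0.581 to 4.67 ± 0.432 CPM. Of 5 tested genes repressed by EZH2 and 8 tested germ cell genes silenced by methylation, 0 were called by edgeR in the 5 comparisons, with at most 3 and 2 at an unadjusted p under 0.05.

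Genes of S phase and mitosis differed between the groups as well, and their part in the levels of the 9 genes was not tested. With DHT, 11 of 12 were called higher in shTMEFF2 (median log2 fold change 0.88), beside 3.28% of all genes. In shScramble 1, E2F1, was called higher (0.83 ± 0.19, edgeR adjusted p = 0.00697), beside 5.45% of all genes. The median in shScramble was 0.45, and 11 of the 12 had positive values there. At the adjusted p alone, without the fold limit, 7 were higher in shScramble and 12 in shTMEFF2. The difference between the responses was called for 1 of the 12. The highest in shTMEFF2 were MKI67 (1.06 ± 0.20, edgeR adjusted p = 0.00485) and CDK1 (1.05 ± 0.12, adjusted p = 0.000419), and the lowest called were MCM4 (0.76 ± 0.12) and CCNB1 (0.62 ± 0.16). Between lines with DHT, 1 of the 12, CDK1, was called higher in shTMEFF2, beside 3.03% of all genes. The summed level of the 12 was 1208 ± 115 CPM (SD, n = 3) in shScramble DHT- and 1573 ± 159 in shScramble DHT+. In shTMEFF2 it was 1224 ± 193 CPM without DHT and 2166 ± 253 with it. The order of these DHT+ means was that of all 9 genes. For EZH1 that order turned in some fits leaving out 1 library (log2 difference 0.01 ± 0.14, from -0.07 to 0.07).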

How the data were processed

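RNA was sequenced from 12 LNCaP libraries, 3 in each of 4 groups. The authors trimmed reads with Trimmomatic, quantified transcripts with kallisto 0.42.3 on GRCh38 and deposited estimated counts per gene symbol, scaled by library size and transcript length, in 2 columns per library, which were taken as repeat runs. The columns were summed and rounded. All 12 libraries were fitted in R 4.3.3 with edgeR 4.0.16 (TMM, filterByExpr with a minimum count of 10 and total of 15, quasi-likelihood test, 1 coefficient per group), and p-values were adjusted by Benjamini-Hochberg over 15419 genes. The interaction was called on the adjusted p alone. P-values measure the spread between these treatments. Replicates of a group differed by more than the 2 columns of a library did. The statistics were tested on simulated data. The members and gene lists were chosen with earlier results of these data known.

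Named genes were the 9 members, TMEFF2, androgen targets, every called gene of a list (or the 2 highest and 2 lowest where more than 4 were called), GSTP1, and the 3 genes most correlated with each member (log2 CPM, prior count 2). Others are named as examples or for their values. A few genes that the rule names are left out. Positions are from GENCODE v44 and promoters from RefSeq. Alternatives were DESeq2 1.42.0, limma-voom (limma 3.58.1), library size only, a mean above 5 CPM, no filter, the 6 libraries of a comparison, the replicate block and each library left out.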

Additional observations from a re-analysis of the deposited data

Results flagged for a closer look

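For 5 of the listed genes named, the DHT response in shTMEFF2 minus that in shScramble (log2 scale) passed edgeR's test. CDCA7L differed by 0.8456 and CDK1 by 0.6544, and both were higher with DHT in shTMEFF2. CDCA7L kept its call in 15 of 18 other fits and CDK1 in 9 of 18. KDM6A differed by 0.4036, where the value in shScramble was the more negative. FKBP5 differed by -2.4952, with the larger response in shScramble, and KDM4B by -0.4904. KDM4B kept the call in 7 of 18 other fits, and KDM6A and FKBP5 in all 18. Groups of 3 libraries are too small to look for single outlying libraries.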

How the results depend on the processing

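Of 846 recomputed fold changes of the 9 genes, 842 moved by less than the spread between replicates and 0 of the called values changed sign. The 4 others came from single libraries: without shTMEFF2 DHT- replicate 3, DNMT1 was 0.67 for DHT in shTMEFF2 and 0.58 for the difference, and without shScramble DHT+ replicate 2, EED was 0.42 between lines with DHT and 0.41 for the difference. EZH2 lost its DHT call in shTMEFF2 without shTMEFF2 DHT- replicate 1, DHT- replicate 2 or DHT+ replicate 3. For the difference, 2 members (HELLS and DNMT1) were called with DESeq2, library size only, a mean above 5 CPM, no filter and the replicate block. Of the chromatin lists, 8 fell with DHT in shScramble with library size only, and for the difference 2 were lower with DESeq2 and 0 with library size only. The cause was not tested. Calls of listed genes lost by leaving out 1 library were, for DHT in shScramble, CDCA7 and CHD6 (DHT- replicate 1), CHD7 (DHT+ replicate 2), TET2 (DHT- replicate 2 or DHT+ replicate 3), KDM6B (DHT- replicate 3, DHT+ replicate 2 or 3) and ASF1B (DHT- replicate 1 or 3, DHT+ replicate 2 or 3). For DHT in shTMEFF2 they were SCML2 (DHT- replicate 2 or DHT+ replicate 3), PCLAF (DHT- replicate 2), CCNB1 (DHT- replicate 1 or 2, DHT+ replicate 2 or 3) and RARB (10 of the libraries). Between lines with DHT they were CHAF1B (shScramble DHT+ replicate 1) and CDK1 (shScramble DHT+ replicate 1 or 3, or shTMEFF2 DHT+ replicate 3). For the difference they were CDCA7L (shScramble DHT- replicate 2, DHT+ replicate 1 or shTMEFF2 DHT- replicate 1), CDK1 (9 of the libraries) and KDM4B, which kept its call in 7 of 18 other fits and lost it with library size only as well.

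Over all genes, 46 were called higher and 42 lower between lines without DHT, against 97 and 83 with DESeq2, 88 and 69 with no filter, 73 and 71 with the replicate block and 27 and 19 in the fit of 6 libraries, and 14 and 18 without shScramble DHT- replicate 1. For the difference, 254 were higher and 507 lower, against 475 and 724 with DESeq2, 432 and 688 with the replicate block and 127 and 338 without shScramble DHT- replicate 2. For DHT in shTMEFF2, 506 rose and 247 fell, against 363 and 103 without shTMEFF2 DHT+ replicate 3.

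Leaving out 1 library, members called were 0 to 1 for DHT in shScramble, 2 to 4 in shTMEFF2 and 1 to 2 for the difference. Listed genes that fell with DHT were 3 to 7 in shScramble and 0 to 1 in shTMEFF2. Between lines, listed genes called higher were 0 to 1 without DHT and 1 to 4 with it, and 0 to 1 were lower with DHT. For the difference, 1 to 3 were higher and 0 to 1 lower. In the replication-coupled list 1 to 3 rose with DHT in shScramble, 1 to 3 were higher between lines with DHT, and 0 to 2 differed in response.

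Replicate numbers may pair libraries: 15 of 18 same-numbered pairs had a correlation of deviations over 0.1 (median 0.18), and 12 of 12 libraries correlated best with their own number, a hint from the data and not from the design. With the number as a replicate block, 2 members, 4 listed genes higher, 2 lower and 2 of the replication-coupled list were called for the difference. TMEFF2 between lines was -0.47 ± 0.14 without DHT (edgeR adjusted p = 0.124) and -0.40 ± 0.14 with it (adjusted p = 0.0689) under the block. The fit of 6 libraries could not be made for the difference.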
